A study of Mus musculus with 30 samples.

Results

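The AP-2 genes Tfap2a, Tfap2b and Tfap2c and the COUP-TF genes Nr2f1, Nr2f2 and Nr2f6 were followed from mouse embryonic stem cells (ESCs) to kidney organoids and in mouse kidneys. These 6 of the 23986 genes on the arrays were picked by symbol. The choice used measured values: Tfap2a was higher in mesoderm than in ESCs, and Tfap2b and Nr2f2 were higher in intermediate mesoderm than in mesoderm, so those steps are described below without a test. All 6 symbols were found once in the table.

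AP-2 proteins bind GC-rich palindromes as dimers, and COUP-TF proteins are orphan nuclear receptors that bind direct repeats of a short element and mostly repress transcription. In the mouse, Tfap2a is known for its roles in surface ectoderm and neural crest, Tfap2b for the distal nephron and for cystic kidneys when it is lost, and Tfap2c for trophoblast and germ cells. Nr2f2 (COUP-TFII) acts in mesenchyme and venous endothelium and is needed for the metanephric mesenchyme, Nr2f1 (COUP-TFI) patterns the neocortex, and Nr2f6 (EAR2) is the more divergent member of the subfamily.

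RNA was hybridized to 30 Affymetrix Mouse Gene 2.0 ST arrays, with 3 arrays in each of 10 groups. The cultures were of the mouse ESC line 1B10 and comprised undifferentiated ESCs (day 0, on mitomycin C-treated embryonic fibroblast feeders), mesoderm (day 4, after priming with Fgf2 and activin A and then Bmp4, activin A and Fgf2), intermediate mesoderm (day 6, with Y27632, retinoic acid and activin A) and renal progenitors (day 21, with Bmp7 and Fgf2). Organoids were aggregates of these progenitors on filters, given CHIR99021 (a Wnt pathway agonist) with Bmp7 at the start and harvested after 8, 14 or 21 days (8D, 14D and 21D). Whole E12.5, E13.5 and adult kidneys were the in vivo groups, and neither the strain nor the age of the adults is stated. All cultures came from 1 ESC line. The sources do not say whether the 3 arrays of a group came from separate cultures or animals, so p-values measure the spread between these arrays, which may be technical.

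The labels were checked against marker genes. Pluripotent cell markers (8 genes) averaged 9.06 to 9.52 on the log2 scale in ESC arrays and mature kidney markers (10 genes) averaged 11.20 to 11.38 in adult kidney arrays. Primitive streak and mesoderm markers (10 genes) averaged 5.60, 6.52 and 7.41 in ESC replicates 1 to 3, against 7.37 to 7.52 in mesoderm arrays. The ESC arrays thus differed in these markers, and replicate 3 lay within the mesoderm range. Fibroblast and feeder cell markers (12 genes) averaged 7.83 to 8.53 in ESC arrays, against 6.51 to 7.01 in mesoderm arrays. The part of feeder cells in the ESC levels was not tested. In intermediate mesoderm Osr1, an early marker of that tissue, averaged 8.93, against 6.96 in mesoderm, while Pax2, a regulator of nephric fate, averaged 4.77, against 5.05 in mesoderm and 4.48 in ESCs. In renal progenitors Six2, which marks nephron progenitors, averaged 5.25, against 10.04 in E12.5 kidneys, and Pax2 averaged 5.47, against 9.68, so the RNA of both was low there. By immunocytochemistry the paper found Six2, Wt1 and Pax2 protein in part of the progenitor cells, and it described its intermediate mesoderm as Pax2-positive. The arrays do not measure protein. The 3 renal progenitor arrays also differed in pluripotent cell markers, which averaged 8.32, 7.11 and 5.61 in replicates 1 to 3. In the paper, Oct4 protein was absent from the progenitors, and Esrrb, Lefty2 and Lin28a were lower than in ESCs by quantitative PCR. The paper took this to mean that the progenitors are not pluripotent. One 8D organoid array (replicate 1) stood apart in stroma genes, at 7.87 against 8.96 and 8.88 in replicates 2 and 3, and in fibroblast markers, at 7.90 against 9.13 and 9.13. Where leaving out either array changed a call or a list count given for it, the value without it stands beside the result. Array medians lay between 5.757 and 5.941. As a guide to background, the medians of 1399 olfactory and vomeronasal receptor genes lay between 2.88 and 3.39.

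The sequences before the start sites of 4 of the genes are shown, because Tfap2b and Nr2f2 were chosen for the same step and because a match to the AP-2 palindrome was found before Nr2f1 and Nr2f6. Each run is the 250 bases upstream of the RefSeq start site, read 5′ to 3′ on the gene's strand (build GRCm38.p6), with matches in capitals. The positions are chr1:19211804-19212053 on the plus strand for Tfap2b, and on the minus strand chr7:70366747-70366996 for Nr2f2, chr13:78198874-78199123 for Nr2f1 and chr8:71381953-71382202 for Nr2f6.
Tfap2b: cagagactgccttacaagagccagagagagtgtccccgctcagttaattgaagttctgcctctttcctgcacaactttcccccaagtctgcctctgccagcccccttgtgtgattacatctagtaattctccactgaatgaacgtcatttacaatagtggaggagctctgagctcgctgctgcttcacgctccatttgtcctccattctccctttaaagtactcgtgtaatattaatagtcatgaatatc
Nr2f2: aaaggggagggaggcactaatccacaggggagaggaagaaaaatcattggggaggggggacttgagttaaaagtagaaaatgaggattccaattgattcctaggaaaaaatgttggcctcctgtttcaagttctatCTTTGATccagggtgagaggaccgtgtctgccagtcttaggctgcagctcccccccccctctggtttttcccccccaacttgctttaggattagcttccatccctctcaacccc
Nr2f1: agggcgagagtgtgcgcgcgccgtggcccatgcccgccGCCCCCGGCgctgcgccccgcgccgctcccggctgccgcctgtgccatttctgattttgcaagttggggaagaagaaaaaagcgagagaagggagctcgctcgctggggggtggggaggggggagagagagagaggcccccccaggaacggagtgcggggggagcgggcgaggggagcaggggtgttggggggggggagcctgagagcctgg
Nr2f6: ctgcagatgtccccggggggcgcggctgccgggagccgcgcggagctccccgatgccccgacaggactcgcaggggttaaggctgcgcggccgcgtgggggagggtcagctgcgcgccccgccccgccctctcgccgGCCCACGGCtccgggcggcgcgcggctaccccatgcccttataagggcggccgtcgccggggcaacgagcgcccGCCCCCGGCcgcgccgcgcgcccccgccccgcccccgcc

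The motifs searched on both strands were the AP-2 palindrome GCCNNNGGC, the nuclear receptor element AGGTCA, its direct repeats spaced by 1 or 5 bases, the TCF/LEF motif ATCAAAG, the Meis motif TGACAG and the TATA box TATAAA. The direct repeats contain the single element. The AP-2 palindrome was matched once before Nr2f1, starting 212 bases upstream of its start site, and at 113 and 39 bases upstream of that of Nr2f6. It occurred in 13.7% of all 32851 promoters of this length. The capitals in Nr2f2 are the TCF/LEF motif on the opposite strand, 114 bases upstream, which 3.21% of promoters held. No other motif was matched in these windows, nor any motif before Tfap2b, before Tfap2a (which has a pair of start sites) or at the downstream start site of Nr2f1. The element AGGTCA itself occurred in 14.0% of all promoters. GC content was 46.4% before Tfap2b, 72.0% before Nr2f1 and 82.4% before Nr2f6, against a median of 52.4% over all promoters. These matches are letters in a sequence and are not measured binding.

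Tfap2a was lowest in ESCs and high from mesoderm onwards. On the log2 scale it was 4.69, 4.81 and 4.60 in ESCs, 8.32, 8.02 and 7.86 in mesoderm, 8.65, 9.08 and 8.62 in intermediate mesoderm and 8.60, 7.51 and 7.73 in renal progenitors. It was 6.77, 8.31 and 7.88 in 8D, 8.68, 8.33 and 8.15 in 14D and 8.09, 8.14 and 8.43 in 21D organoids. It was 7.77, 7.96 and 7.90 in E12.5, 7.76, 8.04 and 7.97 in E13.5 and 5.82, 5.69 and 5.95 in adult kidneys. All cultures after the ESC stage and both embryonic kidney groups therefore lay above adult kidneys, and adult kidneys lay above ESCs. The order of the group means ran from intermediate mesoderm (8.78) through 14D organoids, 21D organoids, mesoderm, renal progenitors, E13.5 kidneys, E12.5 kidneys and 8D organoids (7.66) to adult kidneys (5.82) and ESCs (4.70), and only the last 2 steps separated neighbours whose arrays did not overlap.

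Tfap2b was low in ESCs and mesoderm and high from intermediate mesoderm onwards, adult kidneys included. It was 4.86, 4.92 and 5.41 in ESCs, 6.10, 5.48 and 5.86 in mesoderm, 8.51, 8.88 and 8.63 in intermediate mesoderm and 9.26, 6.87 and 8.39 in renal progenitors. Its 3 progenitor arrays spanned more than those of any other group. It was 6.37, 7.94 and 6.57 in 8D, 8.67, 8.23 and 7.66 in 14D and 8.83, 7.63 and 8.55 in 21D organoids, so that 2 of the 3 8D arrays lay below all arrays of the later organoids. It was 8.55, 8.38 and 8.07 in E12.5, 8.39, 8.75 and 8.62 in E13.5 and 8.71, 8.25 and 8.54 in adult kidneys, which overlapped. From the highest mean, in intermediate mesoderm (8.67), to 8D organoids (6.96), no neighbours in the order were separated, whereas 8D organoids, mesoderm (5.81) and ESCs (5.06) were each apart from the next.

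Tfap2c ran the other way, with its highest level in ESCs. It was 8.18, 8.06 and 7.75 in ESCs, 7.27, 6.77 and 7.25 in mesoderm, 7.40, 7.61 and 8.18 in intermediate mesoderm and 5.43, 5.18 and 5.18 in renal progenitors. It was 6.55, 7.61 and 6.40 in 8D, 7.28, 6.12 and 5.89 in 14D and 6.56, 5.92 and 5.73 in 21D organoids. All organoid arrays were thus above all renal progenitor arrays. In kidneys it was 4.65, 5.54 and 4.55 at E12.5, 5.25, 5.04 and 5.26 at E13.5 and 4.60, 5.47 and 5.07 in adults, which overlapped each other and the progenitors. In the order of means, intermediate mesoderm (7.73) and mesoderm (7.10) were apart, as were 21D organoids (6.07) and renal progenitors (5.26).

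**Figure D1:**
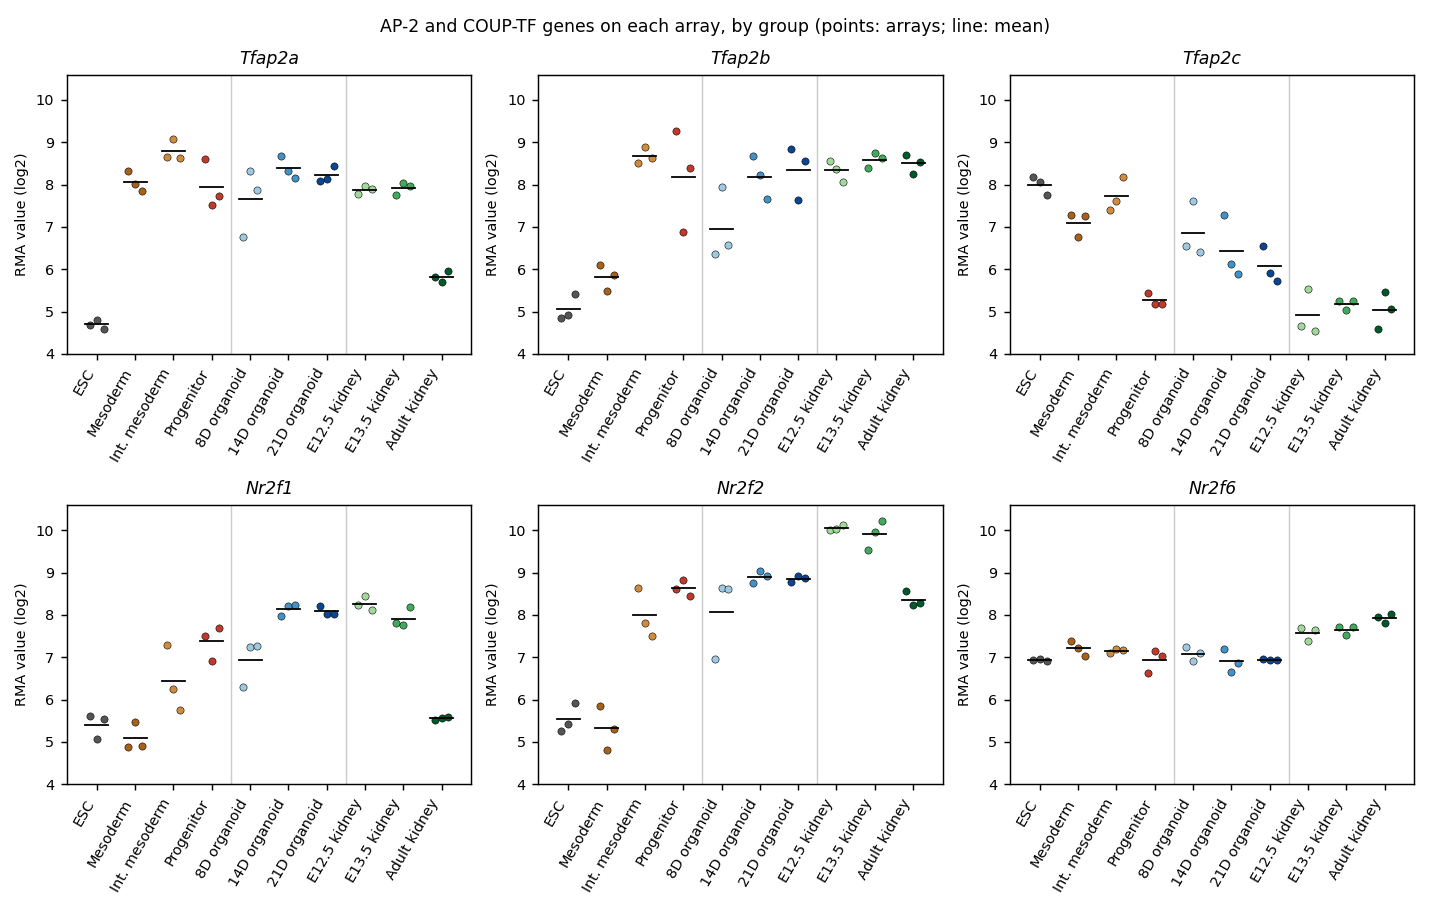
RMA log2 value (y axis) of each of the 6 genes on every array, with the 10 groups along the x axis and 1 panel per gene. Points are arrays (3 per group, replicates 1 to 3 from left to right) and lines are group means. Nr2f2 lies at 9.53 or above on all 6 embryonic kidney arrays, and Tfap2a and Nr2f1 are at 5.95 or below in adult kidneys, where Tfap2b is at 8.25 or above.

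Nr2f1 was low until mesoderm, intermediate in the middle stages and highest in late organoids and embryonic kidneys. It was 5.60, 5.07 and 5.55 in ESCs, 4.87, 5.48 and 4.90 in mesoderm, 7.28, 6.25 and 5.75 in intermediate mesoderm and 7.51, 6.92 and 7.70 in renal progenitors. It was 6.29, 7.24 and 7.26 in 8D, 7.98, 8.21 and 8.24 in 14D and 8.21, 8.02 and 8.02 in 21D organoids. The 14D and 21D arrays all lay above the 8D arrays. In kidneys it was 8.24, 8.44 and 8.11 at E12.5, 7.80, 7.76 and 8.18 at E13.5 and 5.52, 5.56 and 5.59 in adults. Adult kidneys overlapped ESCs, and the 4 highest group means (E12.5 kidneys, 14D organoids, 21D organoids and E13.5 kidneys, 8.26 to 7.91) had neighbours that overlapped.

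Nr2f2 had the widest range of group means of the 6 genes, 4.74 on the log2 scale, a span larger than that of 98.2% of all genes. Its lowest mean, in mesoderm (5.32), was used in choosing the gene, so this span is a description only. It was 5.25, 5.42 and 5.92 in ESCs, 5.85, 4.80 and 5.31 in mesoderm, 8.64, 7.81 and 7.51 in intermediate mesoderm and 8.62, 8.82 and 8.45 in renal progenitors. It was 6.95, 8.64 and 8.60 in 8D, 8.75, 9.04 and 8.92 in 14D and 8.77, 8.93 and 8.86 in 21D organoids. A single 8D array, replicate 1, was low. In kidneys it was 10.01, 10.02 and 10.13 at E12.5, 9.53, 9.97 and 10.21 at E13.5 and 8.56, 8.24 and 8.28 in adults. Embryonic kidneys were apart from 14D organoids (8.90), the next in order, and intermediate mesoderm (7.98) was apart from ESCs (5.53), while the 6 groups between 14D organoids and intermediate mesoderm overlapped their neighbours.

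Nr2f6 varied least, over 1.03 on the log2 scale, a span larger than that of 55.6% of all genes. In ESCs it was 6.94, 6.95 and 6.91, and in mesoderm, intermediate mesoderm and renal progenitors its arrays lay between 6.63 and 7.38. In organoids they lay between 6.66 and 7.23. In kidneys it was 7.68, 7.38 and 7.64 at E12.5, 7.72, 7.52 and 7.71 at E13.5 and 7.96, 7.81 and 8.03 in adults, and adult kidneys alone were apart from the next group in order. Of the remaining AP-2 genes, Tfap2d had group means of 4.08 to 4.74 and Tfap2e of 5.35 to 5.74, and no neighbours in their orders were separated.

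At the steps on which the genes were chosen, the fitted differences are a description. From the model with a batch term, Tfap2a differed by 3.36 ± 0.27 (SE, 10.3-fold) between mesoderm and ESCs, Tfap2b by 0.75 ± 0.43 and Tfap2c by -0.90 ± 0.34, while Nr2f1 (-0.32 ± 0.28) and Nr2f2 (-0.21 ± 0.33) overlapped in range. Between intermediate mesoderm and mesoderm, Tfap2b differed by 2.86 ± 0.43 (7.25-fold), Nr2f2 by 2.67 ± 0.33 (6.35-fold), Nr2f1 by 1.34 ± 0.28, Tfap2a by 0.72 ± 0.27 and Tfap2c by 0.63 ± 0.34. Nr2f6 differed by 0.28 ± 0.14 at the first step and by -0.06 ± 0.14 at the next. The arrays of batch 1 alone gave 3.63 for Tfap2a at the first step, and 2.40 for Tfap2b and 2.79 for Nr2f2 at the next, with 1 array per group. Between renal progenitors and intermediate mesoderm, whose arrays the choice also used, Tfap2c differed by -2.47 ± 0.34 (5.52-fold lower), Tfap2a by -0.84 ± 0.27, Tfap2b by -0.50 ± 0.43, Nr2f1 by 0.95 ± 0.28, Nr2f2 by 0.65 ± 0.33 and Nr2f6 by -0.22 ± 0.14.

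Retinoid genes were counted at the same steps, since retinoic acid was in the intermediate mesoderm medium. Of 14 receptors, binding proteins and known inducible genes, 6 were higher and none was lower in mesoderm than in ESCs, where 11.7% of all genes passed the test (5.86% higher and 5.8% lower). They included the Hox gene Hoxb1 (8.13 against 5.31). A further count of 6 higher and none lower was found in intermediate mesoderm against mesoderm, where 7.05% of genes passed (3.15% higher and 3.9% lower), with the retinoic acid receptor Rarb at 7.68 against 5.26 (adjusted p = 0.000584), the homeobox gene Meis1 at 9.60 against 7.57 and the binding protein Crabp1 at 9.45 against 7.89. Of 11 measured kidney stroma genes, 8 were higher in intermediate mesoderm than in mesoderm and none was lower, among them Pdgfra, a mesenchymal growth factor receptor, at 8.25 against 6.56. In renal progenitors against intermediate mesoderm, Crabp1 (6.07 against 9.45) and Crabp2 (6.53 against 9.80) were lower. There 2 of the 14 retinoid genes were higher and 4 lower (5 without renal progenitor replicate 1), in a comparison where 26.5% of all genes passed (10.7% higher and 15.9% lower).

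Tissues in which AP-2 genes are best known were also followed at these steps. Of 16 surface ectoderm genes, 3 were higher and 1 lower in mesoderm than in ESCs, with the homeobox gene Dlx5 at 7.90 against 4.85 and the epithelial regulator Grhl2 at 7.10 against 5.53. Of 15 neural crest genes, 2 were higher (Pax3 at 7.06 against 5.29, Zic1 at 6.82 against 5.36) and 1 was lower. In intermediate mesoderm against mesoderm, 1 surface ectoderm gene was higher (Trp63, which marks basal epithelium, at 6.50 against 5.16) and 1 lower, and 1 neural crest gene was lower and none higher. In renal progenitors against intermediate mesoderm, 2 surface ectoderm genes were higher and 10 were lower (none and 9 without renal progenitor replicate 1), among the lower ones the epithelial genes Cldn6 (6.57 against 9.82), Krt18 (7.18 against 10.27) and Cdh1 (8.39 against 11.05). Among the partners of AP-2, Kctd1, an inhibitor of AP-2 activity, was higher in mesoderm than in ESCs (6.19 against 5.36) and again in intermediate mesoderm than in mesoderm (7.63 against 6.19), where no other AP-2 partner passed.

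Renal progenitors had lower levels of all 3 COUP-TF genes than embryonic kidneys, and no AP-2 gene passed the test. Nr2f2 averaged 8.63 ± 0.186 in renal progenitors and 9.98 ± 0.237 in embryonic kidneys (SD, n = 3 and n = 6 arrays), a fitted difference of -1.38 ± 0.29 (SE, 2.60-fold lower, limma adjusted p = 0.000623). Nr2f6 averaged 6.93 ± 0.272 and 7.61 ± 0.132 (-0.67 ± 0.12, adjusted p = 0.000168), and Nr2f1 7.38 ± 0.405 and 8.09 ± 0.262 (-0.75 ± 0.25, adjusted p = 0.0193), and for all 3 genes the arrays of the groups did not overlap. The count of 3 of 6 genes called stood beside 34.2% of all genes, and all 3 were lower, where 20% of all genes were lower. The differences of Tfap2a (0.01, 95% confidence interval -0.48 to 0.50), Tfap2b (-0.33, -1.10 to 0.44) and Tfap2c (0.20, -0.42 to 0.82) did not pass. In whole cultures and tissues, fewer cells of a type and less RNA per cell cannot be told apart. The call for Nr2f1 was lost without progenitor replicate 1 (adjusted p = 0.0631), without progenitor replicate 2 (-0.55, adjusted p = 0.163) and with quantile normalization (-0.57, adjusted p = 0.0578), and Tfap2b passed with array weights (-1.01, adjusted p = 0.0318). Within batch 1, with 1 renal progenitor and 1 E13.5 array, the differences were -0.92 for Nr2f2, -1.09 for Nr2f6 and -0.29 for Nr2f1, and with batch 2 alone they were -1.44 (adjusted p = 0.00139), -0.51 (0.00891) and -0.81 (0.0214). Tfap2b differed by 0.87 within batch 1 and by -0.88 (adjusted p = 0.125) with batch 2 alone.

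Lists of other genes were counted in the same comparison, where 34.2% of all genes passed (14.2% higher and 20% lower). Of 11 kidney stroma genes, 5 were lower in renal progenitors than in embryonic kidneys and 1 was higher (2 without renal progenitor replicate 1), with Tcf21 (6.23 against 10.25), Foxd1 (4.86 against 8.44) and Tbx18 (5.39 against 8.09), all transcription factors of the kidney mesenchyme, among the lower ones. Averaged over the stroma genes, renal progenitor arrays lay between 8.33 and 9.21 and embryonic kidney arrays between 9.81 and 9.97. Of 8 endothelial markers 7 were lower and none was higher (Erg, an endothelial transcription factor, at 4.79 against 8.19), and of 8 venous and lymphatic genes 4 were lower and 2 higher. Of the 8 pluripotent cell markers 5 were higher and none was lower (Sox2 at 8.66 against 4.39), and 2 were higher without renal progenitor replicate 1. Of 12 fibroblast markers 5 were higher and none lower, and 7 were higher without that array. The part of these cell types in the differences of the 3 COUP-TF genes was not tested. Of 12 partners of COUP-TF, 4 were lower (among them the corepressor Bcl11b at 5.41 against 6.33) and 1 was higher. The counts without progenitor replicate 1 were 2 lower and 1 higher. Of 11 partners of AP-2, 6 were lower and 1 higher, among them the coactivator Cited4 (5.74 against 6.89) and the AP-2 inhibitor Kctd15 (6.56 against 7.51). Of the 14 retinoid genes, 4 were lower and 1 was higher (none without renal progenitor replicate 1), with Crabp2 at 6.53 against 9.97 and Stra6, the retinol transporter, at 6.90 against 9.52.

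**Figure D2:**
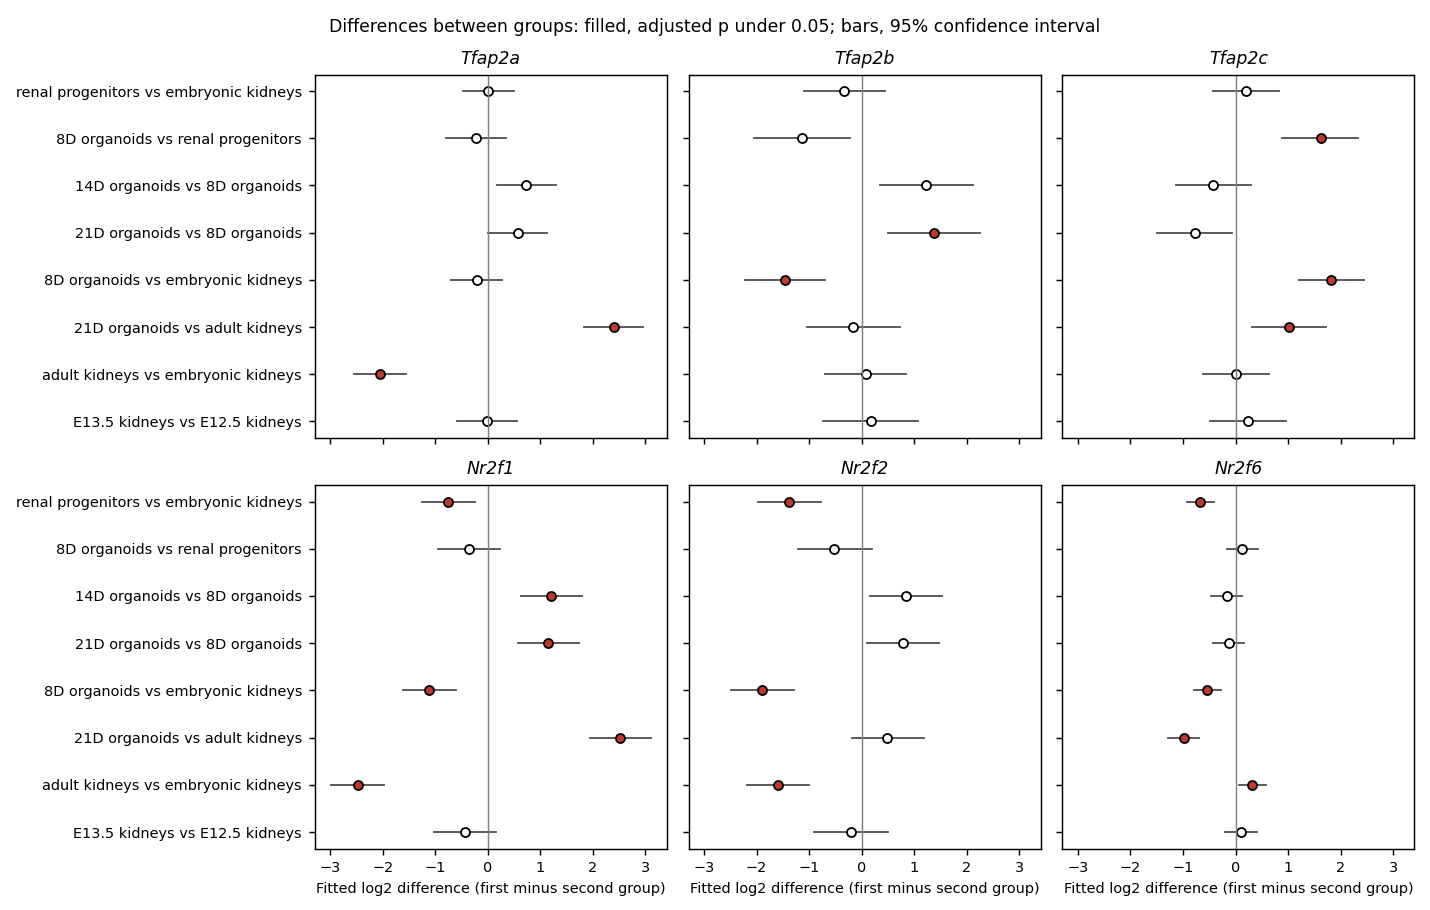
Fitted log2 difference of each gene (x axis, first named group minus the second) in the 8 tested comparisons (y axis), with its 95% confidence interval as a bar. Filled points had an adjusted p under 0.05. Nr2f1 lies at 2.52 for 21D organoids against adult kidneys and at -2.48 for adult against embryonic kidneys, while the intervals of Tfap2b include 0 in both.

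Of the 6 genes, Tfap2c alone passed the test between 8D organoids and renal progenitors, where 19.4% of all genes passed (11.7% higher and 7.69% lower). It averaged 6.85 ± 0.659 in 8D organoids and 5.26 ± 0.148 in renal progenitors (SD, n = 3 each), a difference of 1.62 ± 0.35 (SE, 3.07-fold higher, adjusted p = 0.002), and the arrays did not overlap. It was 1.77 without 8D organoid replicate 1 (adjusted p = 0.00427), but with the arrays of the compared groups alone the call was lost (1.68, adjusted p = 0.0596). Tfap2b differed by -1.13 ± 0.44 (adjusted p = 0.0718), and passed without progenitor replicate 2 (-1.84, adjusted p = 0.00301), without 8D organoid replicate 2 (-1.62, adjusted p = 0.0119) and without the batch term (-1.22, adjusted p = 0.0442). The intervals of Tfap2a (-0.80 to 0.35), Nr2f1 (-0.95 to 0.24), Nr2f2 (-1.22 to 0.19) and Nr2f6 (-0.17 to 0.43) included 0.

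Some markers of cell types in which Tfap2c is known passed in the same comparison, and others did not. Of the 8 pluripotent cell markers, 5 were higher in 8D organoids than in renal progenitors and none was lower, with Nanog at 10.55 against 7.86 and Sox2 at 10.17 against 8.66, and 2 were higher without 8D organoid replicate 1 and 6 without renal progenitor replicate 1, with none lower. Their average was 8.65, 8.72 and 7.54 in 8D organoids, against 8.32, 7.11 and 5.61 in renal progenitors. On the same arrays, in the same order, Tfap2c was 6.55, 7.61 and 6.40 in 8D organoids, against 5.43, 5.18 and 5.18 in renal progenitors. Of 9 primordial germ cell markers 3 were higher (among them Prdm1, a germ cell regulator, at 7.86 against 6.71) and 1 was lower. The counts without 8D organoid replicate 1, and without renal progenitor replicate 1, were each 3 higher and none lower. Of 10 trophectoderm markers 4 were higher and none lower, led by Hand1 (8.87 against 5.64), Eomes (7.59 against 5.36) and Cdx2 (7.15 against 5.59), and 3 were higher without 8D organoid replicate 1. Of the 16 surface ectoderm genes, 8 were higher and none lower (Epcam, an epithelial adhesion molecule, at 7.91 against 6.08), with 4 higher without 8D organoid replicate 1 and 7 without renal progenitor replicate 1. The part of these cells in the difference of Tfap2c was not tested. Of the AP-2 partners, 3 were higher and 1 lower (Yeats4 at 9.52 against 8.87, Kctd1 at 6.58 against 7.38), and of the COUP-TF partners 3 were higher and 2 lower, with Zfpm2 (FOG2), a cofactor of COUP-TFII, at 6.51 against 7.79. Without 8D organoid replicate 1 these counts were 1 higher and none lower for AP-2 partners, and 1 higher and 1 lower for COUP-TF partners, and without renal progenitor replicate 1 they were 1 higher and 1 lower, and 2 higher and 2 lower. Crabp1 (9.13 against 6.07) and Crabp2 (9.87 against 6.53) were among the 3 retinoid genes that were higher (4 without 8D organoid replicate 1), and 2 were lower.

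Against embryonic kidneys, 8D organoids differed in 5 of the 6 genes, where 21.2% of all genes passed (9.11% higher and 12% lower). Tfap2c was higher, by 1.82 ± 0.30 (SE, 3.53-fold, adjusted p = 9.38e-05), with means of 6.85 ± 0.659 in 8D organoids and 5.05 ± 0.383 in embryonic kidneys (SD, n = 3 and n = 6). The other 4 were lower: Nr2f2 by -1.89 ± 0.29 (8.06 ± 0.965 against 9.98 ± 0.237, adjusted p = 3.98e-05), Tfap2b by -1.46 ± 0.37 (6.96 ± 0.855 against 8.46 ± 0.238, adjusted p = 0.00587), Nr2f1 by -1.11 ± 0.25 (6.93 ± 0.555 against 8.09 ± 0.262, adjusted p = 0.0018) and Nr2f6 by -0.54 ± 0.12 (7.08 ± 0.165 against 7.61 ± 0.132, adjusted p = 0.00267). For all 5 genes the arrays did not overlap. Tfap2a differed by -0.21 (interval -0.70 to 0.27). Without 8D organoid replicate 1, Tfap2b no longer passed (-1.17, adjusted p = 0.0679), while Nr2f2 (-1.34, adjusted p = 0.000654) and Nr2f1 (-0.79, adjusted p = 0.0398) did.

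The stroma genes were again lower, 6 of 11 with none higher, and 5 without replicate 1 of the 8D organoids. Tcf21 was 6.43 against 10.25 and Foxd1 5.60 against 8.44, and the average over the list was 7.87, 8.96 and 8.88 in 8D organoids, against 9.81 to 9.97 in embryonic kidneys. Of the 8 pluripotent cell markers 6 were higher and none lower (Nanog 10.55 against 4.61), their average being 7.54 to 8.72 in 8D organoids and 4.83 to 5.18 in embryonic kidneys. Of the 9 germ cell markers 8 were higher and none lower (6 higher without replicate 1 of the 8D organoids), among them Dazl (6.58 against 4.14), an RNA-binding protein of germ cells. Of the 8 neural markers 5 were higher and 2 lower (5 and 1 without that array). The part of these cell types in the differences of the 5 genes was not tested. Of 12 ureteric bud and collecting duct genes, 8 were lower and none higher, with the receptor gene Ret at 6.77 against 8.92. Of the retinoid genes 2 were higher and 6 lower, and without replicate 1 of the 8D organoids 1 was higher and 4 were lower. Of the 11 AP-2 partners 3 were lower, Kctd1 (6.58 against 7.65), Cited4 (6.13 against 6.89) and Kctd15 (6.73 against 7.51), and 1 was higher, Wwox (6.53 against 6.01). Of the 12 COUP-TF partners Zfpm2 (6.51 against 8.07) was lower and Prox1 (6.59 against 5.83) was higher, and without replicate 1 of the 8D organoids 1 was lower and none was higher.

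In organoids kept longer, Nr2f1 passed as higher than at 8D in the model of all 30 arrays, but not under every alternative. It averaged 8.15 ± 0.142 in 14D organoids and 6.93 ± 0.555 in 8D organoids (SD, n = 3 each), a difference of 1.21 ± 0.28 (SE, 2.32-fold, adjusted p = 0.0237), and 8.08 ± 0.111 in 21D organoids (1.15 ± 0.28, adjusted p = 0.009), and neither later group overlapped 8D. Of the 6 genes it alone passed at 14D, where 2.07% of all genes passed and 1.63% were higher. At 21D, where 11.5% passed and 5.95% were higher, Tfap2b passed as well, at 8.34 ± 0.628 against 6.96 ± 0.855 in 8D organoids (1.38 ± 0.43, adjusted p = 0.0368), although a 21D array (7.63) lay below an 8D array (7.94). Nr2f2 differed by 0.84 ± 0.33 at 14D (adjusted p = 0.192) and 0.79 ± 0.33 at 21D (adjusted p = 0.134), Tfap2a by 0.73 ± 0.27 (adjusted p = 0.162) and 0.57 ± 0.27 (adjusted p = 0.197), and Tfap2c by -0.42 ± 0.34 (adjusted p = 0.581) and -0.78 ± 0.34 (adjusted p = 0.154). Both comparisons share the 8D arrays. Without 8D organoid replicate 1, Nr2f1 no longer passed at 14D (0.89, adjusted p = 0.246) or at 21D (0.83, adjusted p = 0.0971), nor did Tfap2b at 21D (1.09, adjusted p = 0.207). With the compared groups alone the differences were the same, 1.21 and 1.15 for Nr2f1 and 1.38 for Tfap2b, and none passed (adjusted p = 0.14, 0.0661 and 0.148). The paper, which also used limma, reported no significant genes between 8D and 14D organoids. The model of all 30 arrays called 496 genes there, and the compared groups alone called 0.

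Neural markers moved in the same organoids. Of 8 neural genes, 4 were higher at 14D than at 8D and 6 at 21D than at 8D, with none lower, and without 8D organoid replicate 1 these were 3 and 4. Dcx, a microtubule protein of young neurons, was 9.09 at 14D and 9.60 at 21D, against 6.15 at 8D, and Tubb3, a neuronal tubulin, was 10.02 and 10.42, against 7.67. Averaged over the 8 genes, the neural markers were 8.77, 7.86 and 8.08 in 14D and 8.89, 8.30 and 8.30 in 21D organoids, against 6.45, 7.34 and 6.61 in 8D organoids and 6.01 to 6.35 in embryonic kidneys, where the Nr2f1 arrays lay between 7.76 and 8.44. The part of neural cells in the difference of Nr2f1 was not tested. None of the 11 stroma genes passed at 14D or 21D against 8D, nor did any AP-2 partner. Of the COUP-TF partners none passed at 14D, and at 21D Rxrg (5.81 against 5.04) and Bcl11b (6.59 against 5.81) were higher and Hdac1, a histone deacetylase, was lower (9.50 against 10.16). Of the 15 neural crest genes, 2 were higher at 14D and none was lower (among them Ednrb, an endothelin receptor, at 9.77 against 8.13), and at 21D 1 was higher (Ednrb at 10.21 against 8.13) and 1 was lower. Without 8D organoid replicate 1 none passed at 14D, and 1 was higher and none lower at 21D. Of the 16 surface ectoderm genes none passed at 14D, and at 21D 2 were higher (Krt15 at 7.18 against 5.42, Trp63 at 6.67 against 5.46), neither of which passed without that array. Of the retinoid genes none passed at 14D and 1 was lower at 21D.

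**Figure D3:**
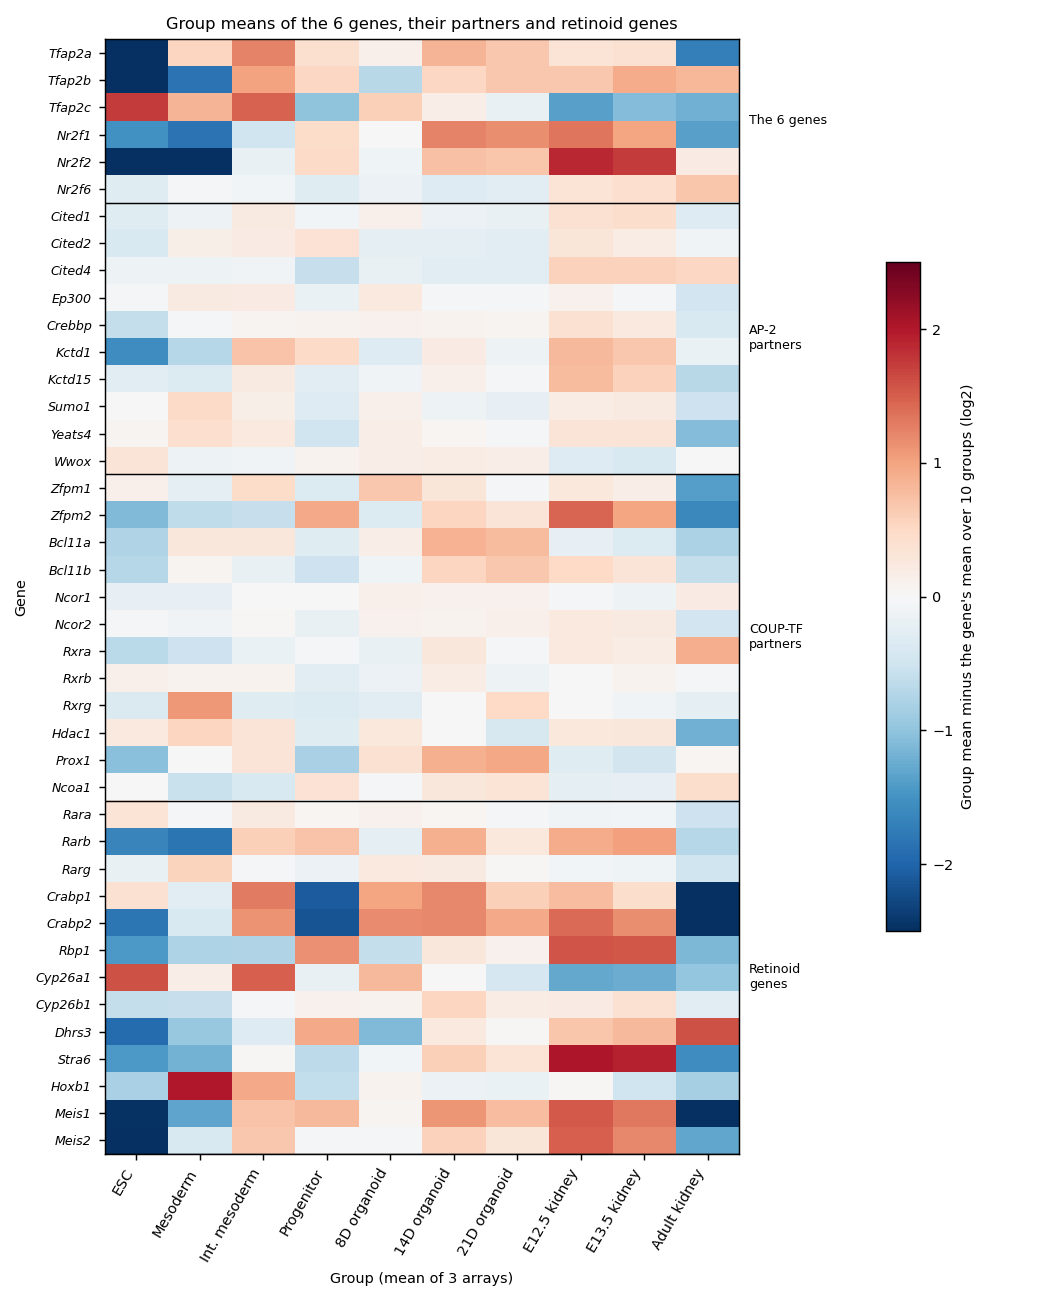
Group mean of each gene minus that gene's mean over the 10 groups (colour, log2 scale, limits -2.5 and 2.5), with the 6 genes and genes of the AP-2 partner, COUP-TF partner and retinoid lists as rows and the groups as columns. Colours compare groups within a row. Crabp1 and Crabp2 are low in renal progenitors (6.07 and 6.53), Crabp1 is low in adult kidneys (4.81), and Tfap2c is high in ESCs (8.00).

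In adult kidneys Tfap2a, Nr2f1 and Nr2f2 were lower than in embryonic kidneys, Nr2f6 was slightly higher, and Tfap2b and Tfap2c did not pass. Nr2f1 averaged 5.56 ± 0.0342 in adult and 8.09 ± 0.262 in embryonic kidneys (SD, n = 3 and n = 6), a difference of -2.48 ± 0.25 (SE, 5.60-fold lower, adjusted p = 4.03e-09). Tfap2a averaged 5.82 ± 0.13 and 7.90 ± 0.114 (-2.05 ± 0.24, 4.14-fold lower, adjusted p = 5.73e-08), and Nr2f2 8.36 ± 0.171 and 9.98 ± 0.237 (-1.60 ± 0.29, 3.02-fold lower, adjusted p = 4.89e-05). Tfap2b averaged 8.50 ± 0.234 and 8.46 ± 0.238, a difference of 0.08 with an interval of -0.69 to 0.85, and Tfap2c 5.05 ± 0.432 and 5.05 ± 0.383 (0.01, interval -0.61 to 0.63). Nr2f6 averaged 7.93 ± 0.112 and 7.61 ± 0.132 (0.32 ± 0.12, adjusted p = 0.0358), and this call was lost without adult replicate 1 (adjusted p = 0.0911) or 3 (0.134), E12.5 replicate 2 (0.0837) or E13.5 replicate 2 (0.0849). The count of 4 of 6 stood beside 49.7% of all genes, the 1 higher beside 24.3% and the 3 lower beside 25.4%. Between E13.5 and E12.5 kidneys none of the 6 genes passed, and 0% of all genes did by limma (465 genes had an unadjusted p under 0.05), with fitted differences from -0.43 ± 0.29 for Nr2f1 to 0.24 ± 0.35 for Tfap2c.

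All 11 stroma genes were lower in adult than in embryonic kidneys, with Foxd1 at 4.61 against 8.44, Meis1 at 6.34 against 10.32 and the collagen Col1a1 at 6.56 against 10.42. Their average was 6.61 to 7.13 in adult and 9.81 to 9.97 in embryonic kidneys. Of 16 genes of the thick limb and distal and connecting tubule, 14 were higher and none lower, such as Umod (11.77 against 4.79) and the salt transporters Slc12a1 (10.81 against 4.17) and Slc12a3 (11.01 against 4.73). They averaged 8.60 to 8.66 in adult and 5.52 to 5.71 in embryonic kidneys, while the arrays of Tfap2b overlapped between the same groups. The part of stroma and distal tubule in these differences was not tested. Of the AP-2 partners 8 were lower and 1 higher, among them Yeats4 (8.28 against 9.69) and Kctd15 (6.13 against 7.51). Of the COUP-TF partners 6 were lower and 2 higher, with Zfpm2 at 5.23 against 8.07 and Zfpm1 at 5.91 against 7.50. None of the retinoid genes was higher and 10 were lower, among them Crabp2, Meis1 and Crabp1 (4.81 against 8.75). Of a list of 6 other receptors from the wider nuclear receptor family of the COUP-TF genes, 2 were higher and 2 were lower. The higher ones were Hnf4a (10.53 against 6.06) and Hnf4g (6.44 against 3.85), both regulators of tubular and gut epithelium.

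After 21 days organoids had higher levels of Tfap2a, Tfap2c and Nr2f1 than adult kidneys and a lower level of Nr2f6. Nr2f1 averaged 8.08 ± 0.111 in 21D organoids and 5.56 ± 0.0342 in adult kidneys (SD, n = 3 each), a difference of 2.52 ± 0.28 (SE, 5.75-fold higher, adjusted p = 4.48e-08), and Tfap2a 8.22 ± 0.183 and 5.82 ± 0.13 (2.40 ± 0.27, 5.29-fold higher, adjusted p = 5.56e-08). Tfap2c averaged 6.07 ± 0.434 and 5.05 ± 0.432 (1.02 ± 0.34, adjusted p = 0.0159), a call lost without 21D replicate 1 (0.78, adjusted p = 0.0963) or adult replicate 1 (0.80, adjusted p = 0.0898). Nr2f6 averaged 6.94 ± 0.0122 and 7.93 ± 0.112 (-0.99 ± 0.14, adjusted p = 2.42e-06). Tfap2b differed by -0.16 (interval -1.04 to 0.72) and Nr2f2 by 0.49 (interval -0.19 to 1.18, adjusted p = 0.235), the arrays of Nr2f2 being apart and its adjusted p being 0.0355 with the compared groups alone. The count of 4 of 6 stood beside 48.4% of all genes, the 3 higher beside 24.4% and the 1 lower beside 24%. Outside the 6, Tfap2d also passed, at 4.74 ± 0.118 against 4.26 ± 0.208 (0.49 ± 0.17, adjusted p = 0.0201).

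All 16 distal nephron genes were lower in 21D organoids than in adult kidneys, with Umod at 4.57 against 11.77 and Slc12a1 at 3.79 against 10.81. They averaged 4.92 to 5.17 in 21D organoids and 8.60 to 8.66 in adult kidneys, beside Tfap2b arrays of 7.63 to 8.83 and 8.25 to 8.71. Of the stroma genes 9 were higher and none lower (Col1a1 11.37 against 6.56), of the neural genes all 8 were higher (Tubb3 10.42 against 5.20), and of the 15 neural crest genes 8 were higher and 2 lower, with Zic1 at 9.61 against 5.13 and Sox9 at 9.44 against 5.73. Sox9 is also a gene of branching epithelium. Of the surface ectoderm genes 9 were higher and none lower (Dlx5 8.05 against 4.64), and of the pluripotent cell markers 5 were higher and none lower (Sox2 9.87 against 4.59). The part of these cells in the differences of Tfap2a, Tfap2c and Nr2f1 was not tested. Of the AP-2 partners 5 were higher and 1 lower. Of the COUP-TF partners 8 were higher (among them Zfpm2 at 7.17 against 5.23 and Bcl11a at 7.16 against 5.58) and 1 was lower. Of the retinoid genes 11 were higher (among them Crabp1 at 8.75 against 4.81) and 1 was lower.

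**Figure D4:**
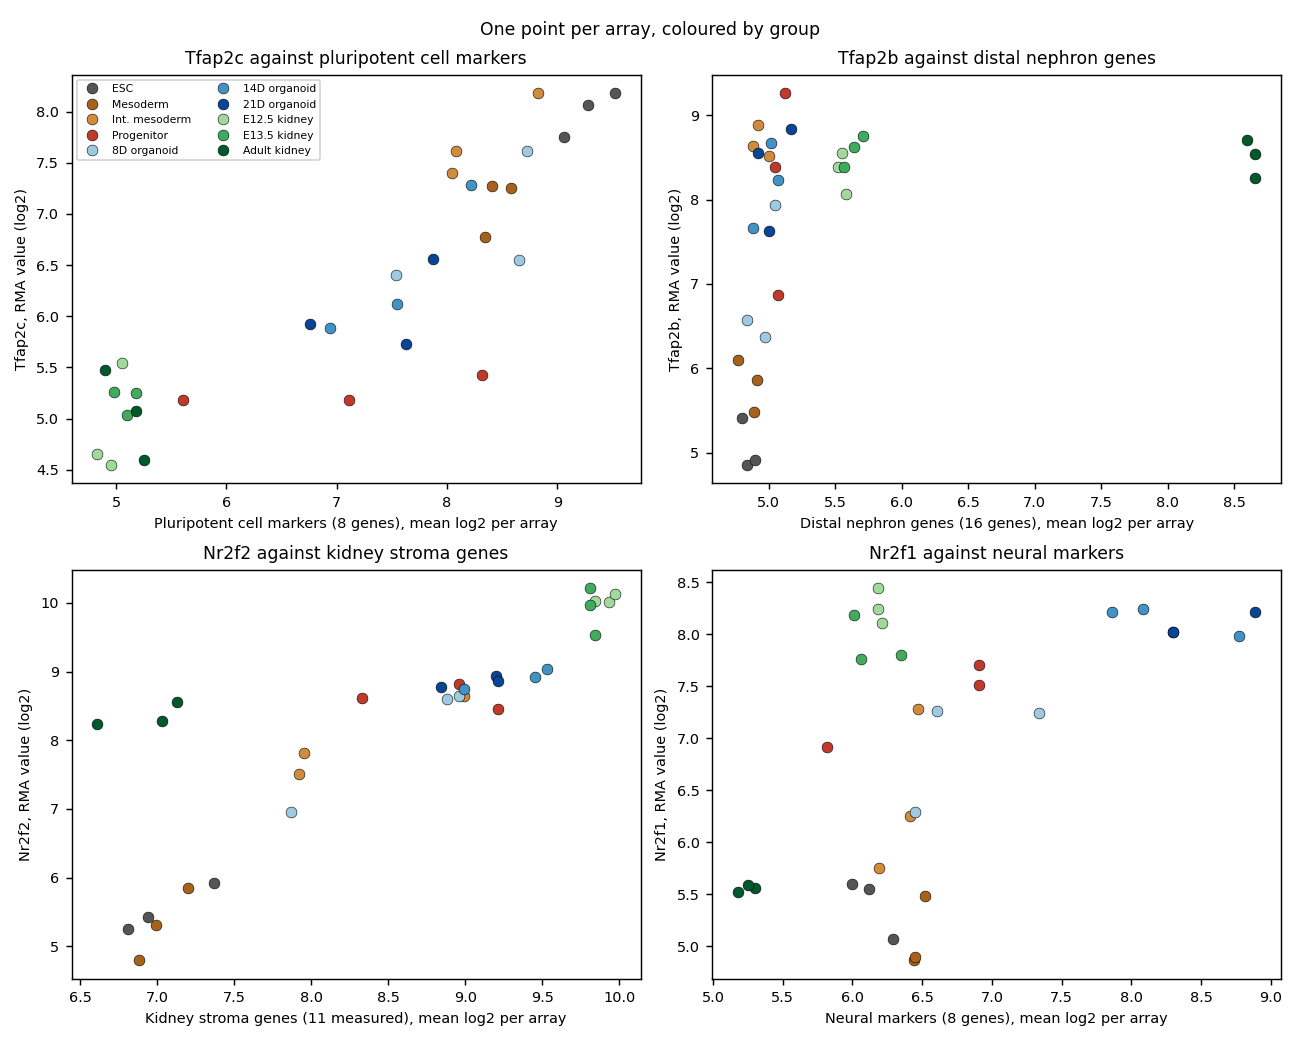
Log2 value of a gene (y axis) against the average log2 value of a marker list (x axis) on each of the 30 arrays, coloured by group: Tfap2c with 8 pluripotent cell markers, Tfap2b with 16 distal nephron genes, Nr2f2 with 11 kidney stroma genes and Nr2f1 with 8 neural markers. Tfap2b is at 8.25 to 8.71 on the adult kidney arrays, which lie at 8.60 to 8.66 in distal nephron genes, far to the right of all other arrays. Renal progenitor arrays lie at 5.61 to 8.32 in pluripotent cell markers, with Tfap2c at 5.18 to 5.43. The 8D organoid arrays lie at 7.54 to 8.72, with Tfap2c at 6.40 to 7.61.

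The genes whose group means followed each of the 6 most closely were sought among 3930 genes that spanned at least 2 on the log2 scale, by Pearson's r over the 10 group means. For Tfap2c these were Lefty2 (0.995), a Nodal antagonist, Nr5a2 (0.990), Prdm1 (0.986), Grhl3 (0.982) and Mreg (0.980). For Nr2f1 they were Samd14 (0.991), the atypical cadherins Fat4 (0.983) and Dchs1 (0.976), the protocadherin Pcdhb21 (0.982) and Ebf3 (0.980). For Tfap2b they were Tshz1 (0.965), Igfbp5 (0.939), Nedd9 (0.930), Zfp503 (0.929) and Zxda (0.924), and for Nr2f2 Gab2 (0.966), Fzd1, Npr3 and Ptprm (0.961 each) and Itpkb (0.956). Tfap2a was followed less closely, by Cntfr (0.919), Efnb2 (0.917), Cachd1 (0.912), Hoxa2 (0.909) and Zfp608 (0.900), and Nr2f6 by the haem synthesis enzymes Alad (0.976) and Fech (0.954) and by Herc6 (0.961), Scnn1b (0.961) and Fam213a (0.960). Among the 6 genes themselves r was 0.88 for Tfap2b with Nr2f2, 0.86 for Nr2f1 with Nr2f2 and -0.76 for Tfap2c with Nr2f2. These values describe 10 groups, several of which are successive stages of 1 culture, and the genes compared share the same arrays. The 10 groups include the ESC, mesoderm and intermediate mesoderm means on which Tfap2a, Tfap2b and Nr2f2 were chosen. A high r between Tfap2b and Nr2f2 therefore partly reflects the choice.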

How the data were processed

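The 30 samples were run on Mouse Gene 2.0 ST arrays (Affymetrix). The authors normalized the arrays by RMA in R (oligo, limma), and the deposited table holds log2 values for 23986 gene symbols; neither versions, nor how several probe sets of a gene were joined, nor whether batches were corrected is stated. RMA brings the arrays to 1 distribution, so values are relative and were compared only within a gene. The paper names the RNeasy Mini kit and the labels the RNeasy Plus kit. The labels place 5 arrays in batch 1 (replicate 1 of ESCs, mesoderm, intermediate mesoderm, renal progenitors and E13.5 kidneys) and 25 in batch 2.

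The values were used as deposited, without a filter. A model with 10 group terms and a batch term was fitted to all 30 arrays with limma 3.58.1 in R 4.3.3 (lmFit, contrasts.fit, eBayes, 19 residual degrees of freedom), and p-values were adjusted by Benjamini-Hochberg over all genes with a threshold of 0.05. Where batches are mixed, a fitted difference can depart from the difference of the means beside it. For embryonic kidneys the E12.5 and E13.5 terms were averaged. Of 11 comparisons, 8 were tested and 3, whose arrays chose the genes, were described. The 6 genes and the 22 lists (209 genes, 208 measured) were chosen with earlier results of these data known. The lists share some genes, such as Meis1 in the stroma and retinoid lists, so their counts are not independent of each other. Lists are described by their counts in the comparisons they are named in, with examples among up to 4 called members of largest difference, and for each of the 6 genes the 5 genes of highest r. Replicate numbers are not stated to pair samples. Arrays hold no read depth, so their number (3 per group) limits the precision; no pair of arrays correlated above 0.99329, and none was treated as a duplicate. The procedure was tested on simulated data. Promoter sequences are from a table of RefSeq (GRCm38.p6) in which 5 of the 6 genes were matched. Figures were drawn with matplotlib 3.10.9. Alternatives were no batch term, batch 2 alone, the compared groups alone, a replicate block, a filter on dim genes, quantile normalization, array weights, a trended and robust prior and leaving out each array. Some list members are counted but not reported here by name.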

Additional observations from a re-analysis of the deposited data

Results flagged for a closer look

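Of the 6 embryonic kidney arrays, E13.5 replicate 1 had the lowest Nr2f2 value, 9.53, farther from the other 5 (9.97 to 10.21) than Dixon's limit for a group of 6. It is the only embryonic kidney array of batch 1. Chance marks about 1 in 20 groups in this way, and 6 genes were examined. Without this array Nr2f2 still passed the limma test as lower than in embryonic kidneys in adult kidneys (-1.71, adjusted p = 2.23e-05), renal progenitors (-1.56, adjusted p = 0.000331) and 8D organoids (-2.01, adjusted p = 2.46e-05).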

How the results depend on the processing

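No difference that passed changed sign under any alternative (20 differences, 316 values). Of the 46 that did not pass or were not tested, 14 changed sign under at least 1 alternative (42 of 662 values, none of them past the threshold), such as Tfap2b in renal progenitors against embryonic kidneys without renal progenitor replicate 2 (0.35, against -0.33 in the full model) and Tfap2a in 8D organoids against embryonic kidneys without 8D replicate 1 (0.23, against -0.21). With the arrays of the compared groups alone, none of the 6 genes passed in 8D organoids against renal progenitors (0, against 1 in the full model; 918 of all genes, against 4658), 14D against 8D organoids (0, against 1; 0 of all genes, against 496) or 21D against 8D organoids (0, against 2; 619, against 2755). Without the batch term 2 of the 6 passed in 8D organoids against renal progenitors. Array weights gave 1037 genes in 14D against 8D organoids and 5 in E13.5 against E12.5 kidneys, where batch 2 alone gave 1 and the full model 0. The filter on dim genes and the trended and robust prior changed no call of the 6 genes, nor did a replicate block (516 genes in 14D against 8D organoids). Among batch 2 arrays, deviations of same-numbered arrays correlated at -0.231 to 0.524 over 100 pairs (median -0.004) and above 0.1 in 12 of them. The batch 1 arrays were not included. Where both groups had only replicates 2 and 3 in batch 2, these gave the same correlation by construction. The pairs are therefore not independent and cannot decide whether the numbers pair samples. Since no source states a pairing, none was used in the main model.

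Leaving out 1 array at a time, the number of the 6 genes called was 2 to 3 in renal progenitors, 4 to 5 in 8D organoids and 3 to 4 in adult kidneys against embryonic kidneys, 1 to 2 in 8D organoids against renal progenitors, 0 to 3 in 14D and 0 to 3 in 21D against 8D organoids, and 3 to 4 in 21D organoids against adult kidneys. Of all genes, 53 to 596 passed in 14D and 1172 to 2578 in 21D against 8D organoids, 3337 to 4862 in 8D organoids against embryonic kidneys and 0 to 1 in E13.5 against E12.5 kidneys. The lowest 3 of these counts (53, 1172 and 3337) were without 8D organoid replicate 1, and 14D against 8D organoids also had 294 without 14D replicate 2 and 150 without 14D replicate 3, and 21D against 8D organoids had 1438 without 21D replicate 2. Without 14D replicate 2 or 3 Nr2f1 no longer passed at 14D (adjusted p = 0.0685 and 0.104), and without 8D replicate 3, 21D replicate 1 or 21D replicate 3 Tfap2b no longer passed at 21D (adjusted p = 0.12, 0.147 and 0.1). Without 8D replicate 2, Tfap2a (1.06, adjusted p = 0.0365) and Tfap2b (1.72, adjusted p = 0.0341) passed at 14D and Tfap2a at 21D (0.89, adjusted p = 0.0339). The causes were not tested. The list counts without 8D replicate 1 or renal progenitor replicate 1 were chosen after seeing the data. The 3 arrays per group limit the precision.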
